A study of Mus musculus with 16 samples.

Results

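Sugar handling genes were described in mouse small intestinal organoids, which are epithelial cultures grown from isolated crypts in Matrigel. The set holds 8 genes that act in fructose uptake and breakdown (Slc2a5, Khk, Tkfc), the polyol pathway (Sord) and gluconeogenesis (Fbp1, G6pc, Pck1), together with Mlxipl, which encodes the sugar-responsive transcription factor ChREBP. These were 8 of the 49585 genes in the count table. They were selected on their counts across the 4 groups compared here, with earlier results of these data known. Their values are therefore a description, given with SDs, SEs and the call of the all-gene test but with no p-value. The share of all genes whose groups do not overlap was not counted, so nothing is read from a lack of overlap in the members. Of the 8 genes, 7 passed the filter on low counts and Pck1 did not.

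RNA was sequenced from 16 cultures in 4 groups of 4. Atg16l1 ΔIEC organoids came from mice with a villin-cre transgene and floxed Atg16l1, in which the autophagy gene is deleted in intestinal epithelial cells, and Atg16l1 fl/fl organoids came from littermates without cre. The mice were on a C57BL/6 background and 8 to 12 weeks old. Within each genotype, cultures were left untreated or treated with IL-22, a cytokine that signals to epithelial cells mainly through STAT3, at 10 ng/ml for 24 h. Each genotype is represented by 2 organoid lines, and each line by 2 cultures under either treatment, so an n of 4 stands for 4 cultures from 2 lines and the tests measure the spread between cultures. Values are given in the order of replicates 1 to 4, of which 1 and 2 belong to the first line and 3 and 4 to the second line of a genotype. Library depth was 2135000 to 5574860 gene counts. Levels are CPM, which are counts scaled to a common library size with TMM factors, as mean ± SD of 4 cultures. Atg16l1 itself was at 40.2 ± 7.24 (untreated) and 45.0 ± 6.33 CPM (IL-22) in fl/fl organoids and at 2.67 ± 1.20 and 1.84 ± 2.76 CPM in ΔIEC organoids. The genotypes did not overlap in Atg16l1, and the highest ΔIEC culture, IL-22–treated replicate 2, held 21 counts. The summed level of 6 epithelial markers was 5627 to 10070 CPM. Of the listed markers of immune and stromal cells, Ptprc, Cd3e, Col1a1, Col1a2, Col3a1, Pdgfra and Acta2 had at most 3 counts in any culture. Others were above this: Cd14, Itgam and Vim exceeded 3 counts in at least 1 culture of every group. Lyz2 did so in every group but untreated fl/fl organoids.

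Dietary fructose enters the enterocyte through the brush border transporter GLUT5, encoded by Slc2a5. Ketohexokinase (Khk) phosphorylates it, the product is split, and triokinase (Tkfc) phosphorylates the glyceraldehyde that results, so that fructose carbon joins the triose phosphates without passing phosphofructokinase. The polyol pathway makes fructose inside the cell, as aldose reductase reduces glucose to sorbitol and sorbitol dehydrogenase (Sord) oxidizes sorbitol to fructose. In gluconeogenesis, Pck1 encodes the cytosolic enzyme that makes phosphoenolpyruvate, Fbp1 encodes fructose bisphosphatase and G6pc encodes the catalytic subunit of glucose-6-phosphatase, which releases free glucose. ChREBP pairs with the protein Mlx, binds E-box motifs and is known to act on genes of fructose breakdown and lipid synthesis. The small intestine is known to carry out fructose breakdown and some gluconeogenesis before sugar reaches the liver.

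The stretches upstream of the start sites are shown for the members with the largest IL-22 differences (Fbp1, G6pc and Khk), for Sord, the member whose IL-22 difference had the other sign in ΔIEC organoids, and for Mlxipl, which encodes the factor itself. They were read from RefSeq promoter windows on GRCm38.p6, without bases that lie in annotated exons except in the Khk window, and run 5′ to 3′ on the gene's strand. Capitals mark motif matches. The Fbp1 stretch is chr13:62888283-62888532 (minus strand), the G6pc stretch chr11:101367466-101367560 (plus), the Khk window chr5:30921482-30921511 (plus), the Sord stretch chr2:122234589-122234748 (plus) and the Mlxipl stretch, upstream of its more distal start site, chr5:135089640-135089889 (plus).
Fbp1: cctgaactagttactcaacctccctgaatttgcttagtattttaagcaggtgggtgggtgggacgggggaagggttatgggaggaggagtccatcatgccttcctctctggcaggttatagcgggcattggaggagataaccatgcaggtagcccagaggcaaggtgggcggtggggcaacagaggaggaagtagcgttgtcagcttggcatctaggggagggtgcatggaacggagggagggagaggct
G6pc: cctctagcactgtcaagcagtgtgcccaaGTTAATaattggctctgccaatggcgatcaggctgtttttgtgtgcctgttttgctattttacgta
Khk: ccccgtCACGTGacaccGTTAATctggcgc
Sord: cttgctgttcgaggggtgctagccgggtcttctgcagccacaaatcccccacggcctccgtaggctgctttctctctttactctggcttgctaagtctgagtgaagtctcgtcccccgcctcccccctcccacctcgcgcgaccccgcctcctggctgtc
Mlxipl: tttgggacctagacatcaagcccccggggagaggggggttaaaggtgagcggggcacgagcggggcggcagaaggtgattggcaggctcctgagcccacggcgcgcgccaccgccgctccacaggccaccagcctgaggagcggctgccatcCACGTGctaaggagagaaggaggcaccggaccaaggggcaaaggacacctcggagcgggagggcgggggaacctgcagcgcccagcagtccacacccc

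Both strands of the 250 bases upstream of each start site were searched for 6 motifs. Distances are counted from RefSeq start sites, while the gene positions given below are from GENCODE. The GENCODE ranges begin further upstream for Sord, Khk, Tkfc, Slc2a5, G6pc and Pck1. The Khk matches and the G6pc TATA box therefore lie inside the gene ranges printed below. The E-box CACGTG was found 71 to 66 bases upstream of the Khk start and 98 to 93 bases upstream of the distal Mlxipl start, and is present in 6.02% of all 32851 windows of this length. The HNF1 half-site GTTAAT was found 60 bases upstream of Khk, 221 bases upstream of G6pc and, on the minus strand, 192 bases upstream of Pck1, with 6.43% of all windows holding it. A TATA box (TATAAA) was found 29 bases upstream of G6pc, and 12.4% of all windows held that motif. The STAT motif TTCNNNGAA (7.02% of all windows), the HNF4 motif CAAAGTCCA (0.384%) and the cAMP response element TGACGTCA (1.55%) had no match in the windows of the 8 genes. A match describes letters in these windows and is not a measured binding site, and the absence of a match says only that these letters are not there.

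Compared per kilobase of exon in untreated fl/fl organoids, Tkfc was the most abundant member at 162 ± 23.2 CPM per kb, followed by Khk at 138 ± 11.8, Sord at 64.3 ± 12.1, Fbp1 at 48.8 ± 2.50, Mlxipl at 42.6 ± 9.64, Slc2a5 at 11.98 ± 2.38 and G6pc at 6.69 ± 3.96 CPM per kb. Neighbours in this order differed by less than the sum of their SDs for Tkfc and Khk, for Fbp1 and Mlxipl, and for Slc2a5 and G6pc. Transcripts of both enzymes that act on fructose after its uptake were above those of the transporter in every group by their means. In IL-22–treated ΔIEC organoids the order of means changed, with Sord highest at 88.0 ± 11.8 CPM per kb, Tkfc at 68.7 ± 13.8, Khk at 23.5 ± 10.2 and Slc2a5 at 10.3 ± 6.74, while Fbp1 was at 0.935 ± 0.643 CPM per kb. Sord and Tkfc differed there by less than the sum of their SDs, as did Khk and Slc2a5.

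**Figure D1:**
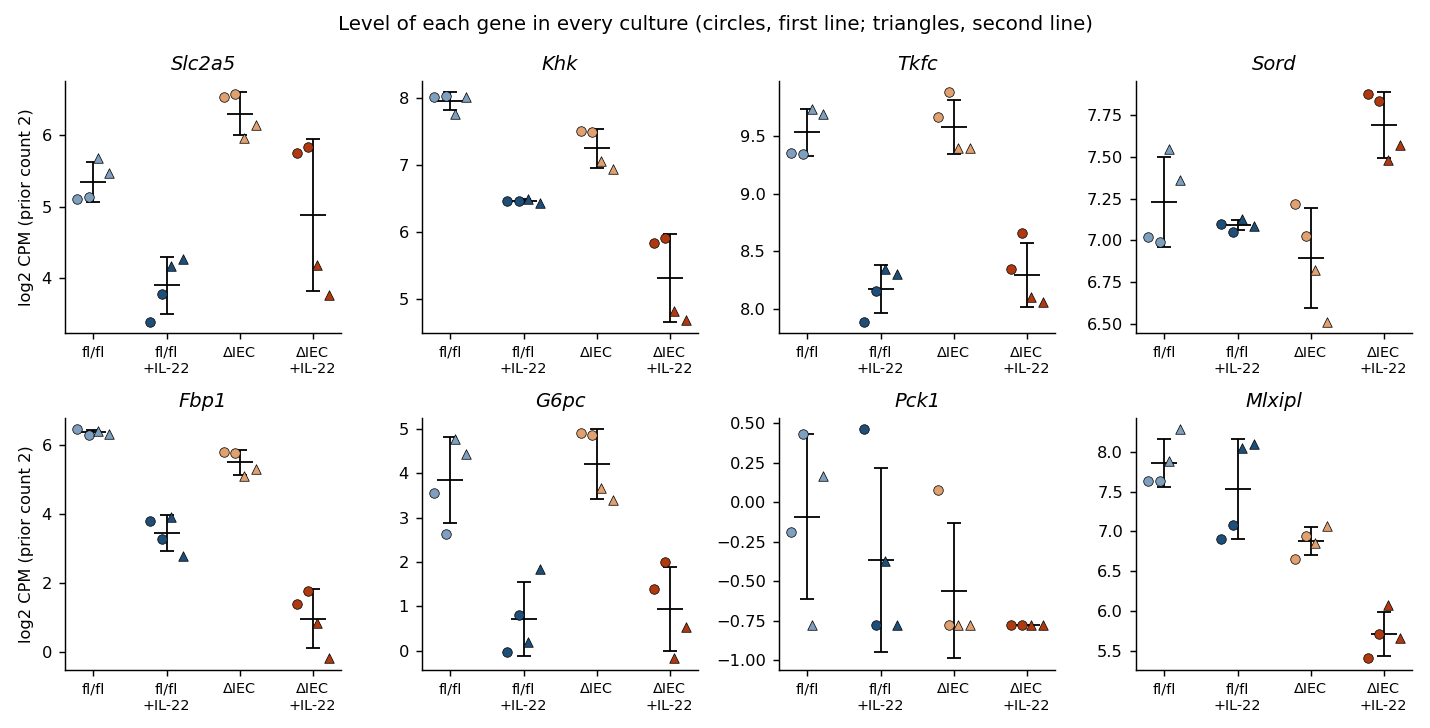
Level of each of the 8 genes in every culture, as log2 CPM with a prior count of 2, in the 4 groups. Circles are cultures of the first organoid line of a genotype and triangles those of the second, and horizontal bars with whiskers are the mean ± SD of 4 cultures. Each panel has its own scale. Slc2a5, Khk, Tkfc, Fbp1 and G6pc lie lower in every IL-22–treated culture than in every untreated culture of the same genotype, Sord lies higher in treated ΔIEC organoids, and Pck1 never exceeds 3 counts. The genes were selected on these counts, and the share of all genes separated in this way was not counted.

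Slc2a5 (ENSMUSG00000028976.10, chromosome 4, 150119283 to 150144169, plus strand, GRCm38), the fructose transporter gene, was counted in fl/fl replicates 1 to 4 at 33.9, 34.5, 50.8 and 43.9 CPM without and 9.90, 13.1, 17.5 and 18.6 CPM with IL-22. In ΔIEC organoids the values were 91.7, 94.5, 61.9 and 70.2 CPM untreated and 53.1, 56.5, 17.5 and 13.02 CPM with IL-22. Treated cultures lay below untreated ones in both genotypes, and within treated ΔIEC organoids the 2 lines were far apart, with means of 54.8 CPM in the first and 15.3 CPM in the second. The log2 fold change with IL-22 was -1.41 (SE 0.43) in fl/fl and -1.22 (SE 0.37) in ΔIEC organoids, and neither was past the threshold of an adjusted p of 0.01. With organoid line as a replicate block both were past it, at -1.44 and -1.25. That fit also called more of all tested genes with IL-22, 3869 in fl/fl and 3257 in ΔIEC organoids, against 2616 and 2195 in the reported fit. Untreated ΔIEC cultures all lay above untreated fl/fl cultures, with a log2 difference of 1.00 (SE 0.36) that was not called.

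Khk (ENSMUSG00000029162.15, chromosome 5, 30921431 to 30931248, plus strand), which encodes the enzyme that commits fructose to breakdown, was counted at 257, 259, 216 and 258 CPM in untreated fl/fl organoids. With IL-22 the fl/fl values were 87.1, 87.6, 89.6 and 86.0 CPM. In ΔIEC organoids they were 180, 180, 132 and 122 CPM untreated and 56.7, 59.4, 27.5 and 25.2 CPM with IL-22. The 4 groups did not overlap and ranked untreated fl/fl, untreated ΔIEC, IL-22–treated fl/fl and IL-22–treated ΔIEC from high to low. Khk was called lower with IL-22 in fl/fl (log2 fold change -1.50, SE 0.21) and in ΔIEC organoids (-1.89, SE 0.23). The fl/fl call was lost without either fl/fl line (-1.41 without the first and -1.56 without the second) and when the cultures of each line were summed (-1.51), which also ended the ΔIEC call (-1.87). It was also called lower in ΔIEC than in fl/fl organoids under IL-22 (-1.07, SE 0.24) but not untreated (-0.68, SE 0.21). The call between genotypes under IL-22 was lost without IL-22–treated fl/fl replicate 3 (log2 difference -1.06) or either fl/fl line (-1.10 and -1.07), with summed cultures (-1.07), without the filter on low counts (-1.05) and in a fit of only the IL-22–treated cultures (-1.07).

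Tkfc (ENSMUSG00000034371.8, chromosome 19, 10587791 to 10605654, minus strand), the triokinase gene, was counted in fl/fl organoids at 656, 653, 852 and 826 CPM without and 236, 285, 325 and 316 CPM with IL-22. The ΔIEC values were 812, 943, 675 and 673 CPM untreated and 326, 404, 274 and 265 CPM treated. IL-22 separated the cultures in both genotypes, while the genotypes overlapped under either treatment. The IL-22 difference was -1.36 (SE 0.15) in fl/fl and -1.29 (SE 0.15) in ΔIEC organoids on the log2 scale, called in both genotypes and under each of the alternatives tried. The 4 lines gave similar log2 CPM changes, between -1.39 and -1.27.

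Sord (ENSMUSG00000027227.7, chromosome 2, 122234749 to 122265340, plus strand), the polyol pathway gene, had another pattern. Untreated fl/fl cultures were counted at 129, 127, 186 and 163 CPM and IL-22–treated ones at 137, 132, 139 and 135 CPM. Untreated ΔIEC cultures were at 148, 130, 113 and 91.0 CPM and IL-22–treated ones at 234, 228, 178 and 189 CPM. The fl/fl groups overlapped, while every treated ΔIEC culture was above every untreated ΔIEC culture and above every treated fl/fl culture. The log2 fold change with IL-22 was -0.15 (SE 0.14) in fl/fl organoids, not called, and 0.77 (SE 0.14) in ΔIEC organoids, called. Sord was also called higher in ΔIEC than in fl/fl organoids under IL-22 (0.61, SE 0.14), a call lost without IL-22–treated ΔIEC replicate 1 (0.55), without replicate 2 of the same group (0.55), without the first ΔIEC line (0.43) or without the first fl/fl line (0.56). Both ΔIEC lines were higher with IL-22 (0.73 and 0.85 in log2 CPM), and the fl/fl lines changed by 0.07 and -0.34.

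Fbp1 (ENSMUSG00000069805.10, chromosome 13, 62864753 to 62888282, minus strand), the fructose bisphosphatase gene, was counted in fl/fl organoids at 88.0, 78.9, 85.2 and 80.3 CPM without and 13.5, 9.12, 14.5 and 6.29 CPM with IL-22. The values in ΔIEC organoids were 55.9, 54.1, 33.8 and 39.0 CPM untreated and 2.03, 2.84, 1.21 and 0.289 CPM treated, the last group resting on 5, 10, 4 and 1 counts. The 4 groups did not overlap. IL-22–treated fl/fl cultures averaged 7.67-fold below untreated ones and IL-22–treated ΔIEC cultures 28.7-fold below untreated ones in CPM. The log2 fold change was -2.92 (SE 0.21) in fl/fl and -4.86 (SE 0.33) in ΔIEC organoids, called in both. Fbp1 was called lower in ΔIEC than in fl/fl organoids, by -0.83 (SE 0.18) untreated and -2.77 (SE 0.40) under IL-22. The untreated genotype call was lost in 5 of the 20 fits that left out a culture or a line: without untreated ΔIEC replicate 3 (-0.73) or 4 (-0.77), untreated fl/fl replicate 1 (-0.80), the second ΔIEC line (-0.57) or the first fl/fl line (-0.82).

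G6pc (ENSMUSG00000078650.2, chromosome 11, 101367561 to 101377903, plus strand), which encodes the last enzyme before glucose release, was counted at 11.1, 5.61, 26.8 and 21.1 CPM in untreated fl/fl organoids and 29.5, 28.3, 12.1 and 9.97 CPM in untreated ΔIEC organoids. With IL-22 it held 1, 5, 3 and 10 counts in fl/fl (0.396, 1.17, 0.563 and 3.00 CPM) and 5, 12, 1 and 3 counts in ΔIEC organoids (2.03, 3.41, 0.302 and 0.868 CPM). The treated and untreated ranges were separate in both genotypes, and the genotypes overlapped under either treatment. The log2 fold change with IL-22 was -3.61 (SE 0.72) in fl/fl and -3.63 (SE 0.68) in ΔIEC organoids. Both were called, and the calls were lost without the second fl/fl line (-3.18) and without the first ΔIEC line (-4.14) respectively. The lines of a genotype differed in untreated level, at 8.36 and 23.9 CPM in fl/fl and 28.9 and 11.02 CPM in ΔIEC organoids.

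Pck1 (ENSMUSG00000027513.11, chromosome 2, 173153048 to 173159273, plus strand), the gene for the cytosolic carboxykinase, had between 0 and 3 counts in every culture. IL-22–treated ΔIEC organoids had 0 counts in all 4 cultures. A total of 3 counts corresponds to 0.563 to 1.36 CPM in these libraries, so no difference could be read for Pck1 at this depth. Such floors cover counting error only.

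Mlxipl (ENSMUSG00000005373.13, chromosome 5, 135089890 to 135138382, plus strand), the ChREBP gene, was counted in fl/fl organoids at 199, 198, 236 and 312 CPM without and 119, 135, 264 and 275 CPM with IL-22. The ΔIEC values were 100.0, 122, 115 and 133 CPM untreated and 41.7, 51.7, 66.8 and 50.1 CPM treated. The fl/fl groups overlapped, and the log2 CPM change was -0.64 in the first fl/fl line and -0.01 in the second. The ΔIEC groups did not overlap. The log2 fold change with IL-22 was -0.24 (SE 0.26) in fl/fl organoids, not called, and -1.15 (SE 0.29) in ΔIEC organoids, called. The ΔIEC call was lost in 13 of the 20 fits that left out a culture or a line: without any single ΔIEC culture, without untreated fl/fl replicate 1, 2 or 3, and without either ΔIEC line. The log2 fold change stayed between -1.28 and -1.06 in those fits. Mlxipl was also called lower in ΔIEC than in fl/fl organoids under IL-22 (-1.91, SE 0.28), a call lost without the first ΔIEC line (-1.78), and untreated ΔIEC cultures lay below untreated fl/fl cultures without a call (-1.01, SE 0.27).

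**Figure D2:**
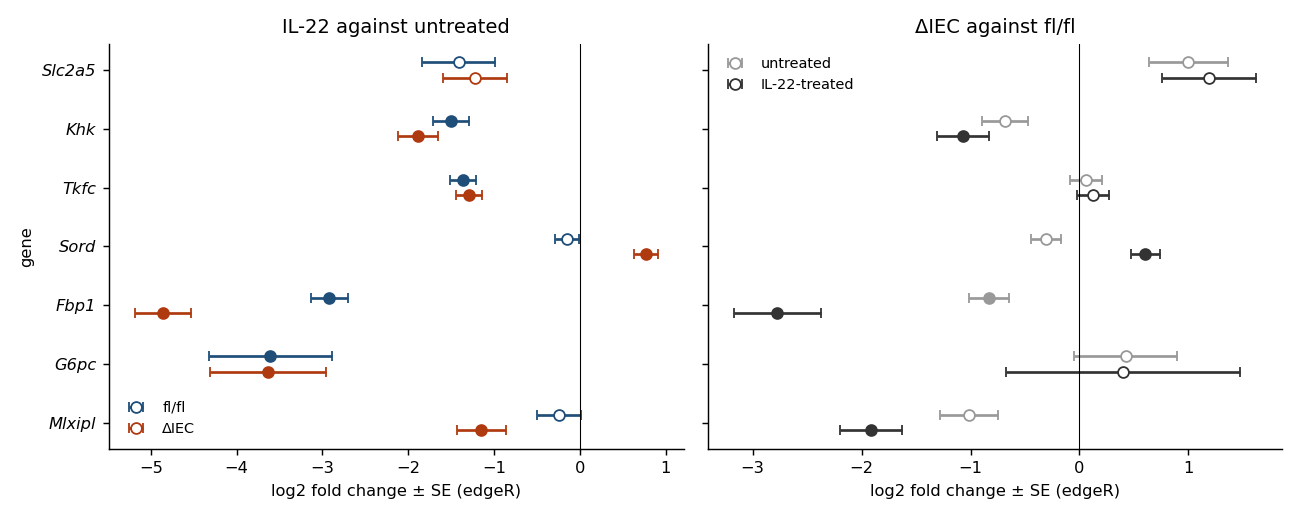
Log2 fold change ± SE of the 7 tested genes. The left panel shows IL-22 against untreated in fl/fl (blue) and ΔIEC (red) organoids, and the right panel ΔIEC against fl/fl without (grey) and with IL-22 (black). Filled symbols are past an adjusted p of 0.01 in the all-gene fit and open symbols are not. Fbp1 and G6pc have the lowest IL-22 values of the 7 genes, between -4.86 and -2.92, and Sord in ΔIEC organoids is the only filled symbol to the right of 0 in the left panel.

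Of the 7 tested members, 0 were called higher and 4 lower with IL-22 in fl/fl organoids (Khk, Tkfc, Fbp1 and G6pc), where 10.6% of all 12559 tested genes were called higher and 10.3% lower. In ΔIEC organoids 1 was called higher (Sord) and 5 lower (Mlxipl and the same 4), where 9.76% of all tested genes were called higher and 7.72% lower. In ΔIEC against fl/fl organoids without IL-22, 0 were called higher and 1 lower (Fbp1), with 3.81% and 6.02% of all tested genes, and with IL-22 1 was called higher (Sord) and 3 lower (Khk, Fbp1 and Mlxipl), with 10.1% and 9.67%. As the members were selected on these contrasts, nothing is read from these counts.

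The interaction, which is the IL-22 effect in ΔIEC minus that in fl/fl organoids, was called for 0 of the 7 members in either direction, and for 0.00796% of all tested genes in each direction. Sord had a log2 difference of 0.92 (SE 0.19) and Fbp1 of -1.94 (SE 0.46). With organoid line as a replicate block, which takes out level differences between lines, both were past the threshold, at 0.92 for Sord and -1.90 for Fbp1. The Sord difference was also past it with DESeq2 (0.91), with limma-voom (0.90) and without the filter on low counts (0.91), and the Fbp1 difference without that filter (-1.94). These settings also differed over all genes: the block called 53, the fit without the filter 36, DESeq2 11 and limma-voom 5, against 2 in the reported fit. DESeq2 adjusted its interaction over 2574 genes. In the 20 fits that left out a culture or a line, 0 members were called for the interaction. Neither was past it with the cultures of a line summed (0.91 for Sord and -1.96 for Fbp1), with RLE scaling, with at least 10 counts in every culture, where Fbp1 was not tested, or at an adjusted p under 0.05. The values of the other members were -0.90 (SE 0.39) for Mlxipl, -0.39 (SE 0.31) for Khk, 0.19 (SE 0.57) for Slc2a5 and 0.07 (SE 0.21) for Tkfc. The comparisons of genotype and of IL-22 share cultures, so a group that was low in Fbp1 or high in Sord entered several of them.

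**Figure D3:**
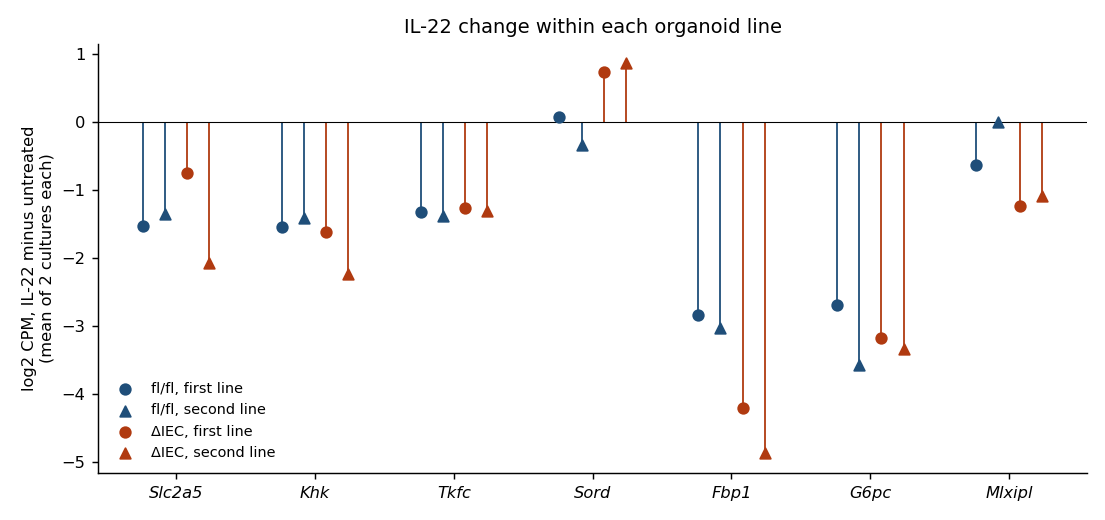
Change in log2 CPM with IL-22 within each organoid line, as the mean of 2 treated minus the mean of 2 untreated cultures, for the 7 tested genes. Circles are the first and triangles the second line of fl/fl (blue) and ΔIEC (red) organoids. Fbp1 ranges from -4.88 to -2.85 and G6pc from -3.59 to -2.70, while Slc2a5 ranges from -2.08 to -0.76 in the ΔIEC lines and Mlxipl from -0.64 to -0.01 in the fl/fl lines.

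Markers of absorptive cells moved with these genes. The summed level of 14 enterocyte markers was 5820 to 7007 CPM in untreated and 3636 to 4438 CPM in treated organoids of the fl/fl genotype, and 5589 to 6729 and 3615 to 4865 CPM in those of the ΔIEC genotype. IL-22 lowered 7 of the 14 past the threshold in fl/fl and 4 in ΔIEC organoids, among them the lactase gene Lct and the glucose transporter gene Slc5a1 in both. It raised 1, the keratin gene Krt20, in both. Of all tested genes, 10.3% and 7.72% were called lower and 10.6% and 9.76% higher. The median log2 fold changes of the 14 were -1.44 and -1.09, against -0.05 and -0.01 over all tested genes. The summed level of 8 stem cell markers was also lower with IL-22, with medians of 2096 and 1121 CPM in fl/fl and 2705 and 1262 CPM in ΔIEC organoids. Of these 8, 0 were called higher, and 3 (fl/fl) and 5 (ΔIEC) lower. Median Paneth cell sums rose from 6615 to 8314 and from 3652 to 4377 CPM, with 2 of 7 markers called higher and 0 lower in each genotype. Median goblet cell sums went from 2184 to 2006 and from 1552 to 1007 CPM. Of 7 goblet cell markers, 3 were called higher and 1 lower in fl/fl, and 2 and 0 in ΔIEC organoids. In these bulk samples fewer cells of a type and less RNA per cell cannot be told apart, and the part of cell composition in the values of Slc2a5, Khk, Tkfc, Fbp1, G6pc and Mlxipl was not tested. Between untreated genotypes the enterocyte sums overlapped, with medians of 6435 CPM in fl/fl and 6511 CPM in ΔIEC organoids, and 0 enterocyte markers were called higher and 1 lower in ΔIEC organoids. Other cell types differed between untreated genotypes. The 7 Paneth cell markers summed to 5625 to 7967 CPM in fl/fl and 3168 to 4156 CPM in ΔIEC organoids, with 0 called higher and 3 lower in ΔIEC organoids, and 0 and 2 of 7 goblet cell markers were called. The stem cell sums were 1937 to 2338 CPM in fl/fl and 2503 to 2749 CPM in ΔIEC organoids, with 5 of 8 markers called higher and 1 lower. Of all tested genes, 3.81% were called higher and 6.02% lower between untreated genotypes. Under IL-22, 4 Paneth and 4 goblet cell markers were called lower, and 4 stem cell markers higher and 1 lower, in ΔIEC organoids. Of the 14 enterocyte markers, 1 was called higher and 0 lower there, with a median log2 difference of 0.14 and overlapping sums. Of all tested genes, 10.1% were called higher and 9.67% lower. The part of these markers in the genotype values of Fbp1, Khk, Sord and Mlxipl was not tested. Liver and kidney, the other main sites of fructose breakdown and gluconeogenesis, have markers of which Alb, Serpina1a, Slc34a1, Umod, Lrp2 and Slc22a6 had at most 3 counts in any culture. The remaining 2 of these 8 markers, Ttr and Apoc3, fell with IL-22 in both genotypes, by 3.52 and 2.63 in fl/fl and 3.75 and 2.82 in ΔIEC organoids on the log2 scale. The 6 immune cell markers had median sums that went with IL-22 from 10.0 to 16.5 CPM in fl/fl and from 13.4 to 26.5 CPM in ΔIEC organoids, with Ptprc and Cd3e at most at 3 counts. Cd14, a lipopolysaccharide coreceptor gene on that list, was called higher with IL-22 in both genotypes (0.91 and 1.02 on the log2 scale) and higher in ΔIEC than in fl/fl organoids under IL-22 (0.79).

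The other genes of the pathway were taken from 6 lists with 71 genes, written with earlier results of these data known, of which 64 were tested. Their adjusted p-values are those of the all-gene test. As the same data informed the lists, these values give no separate support for a list. In fl/fl organoids 12 of these rose and 15 fell with IL-22, where 10.6% of all tested genes rose and 10.3% fell. In ΔIEC organoids 12 rose and 16 fell, with 9.76% and 7.72% of all tested genes. Between genotypes 3 were higher and 13 lower in untreated ΔIEC than in fl/fl organoids, with 3.81% and 6.02% of all tested genes. Under IL-22 5 were higher and 16 lower, with 10.1% and 9.67% of all tested genes. For the interaction 0 of the 64 were called in edgeR's quasi-likelihood test, which called 2 of all 12559 genes, while 893 genes had an unadjusted p under 0.05. The shares of all tested genes given here also stand beside the counts of each list below, and nothing is read from those counts.

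Of 7 tested genes for fructose uptake and breakdown, 3 fell with IL-22 in both genotypes and none rose, and the median log2 fold changes were -1.48 (fl/fl) and -1.38 (ΔIEC). Slc2a2, which encodes GLUT2, the transporter through which sugars leave the enterocyte, went from 129 ± 3.64 to 20.4 ± 6.17 CPM in fl/fl (log2 fold change -2.67, SE 0.28, adjusted p = 8.26e-06 by edgeR) and from 65.9 ± 12.5 to 10.03 ± 6.95 CPM in ΔIEC organoids (-2.79, SE 0.34, adjusted p = 2.51e-05). The mitochondrial aldehyde dehydrogenase gene Aldh1b1 fell by 1.48 (adjusted p = 1.00e-11) and 1.51 (adjusted p = 7.08e-12) on the log2 scale. Slc2a5, Khk, Tkfc and Slc2a2 each had lower means with IL-22 in both genotypes, of which Slc2a5 was not past the threshold in the reported fit. The median log2 fold changes over all tested genes were -0.05 (fl/fl) and -0.01 (ΔIEC). Slc2a5, Khk and Tkfc were selected on these counts and Slc2a2 was listed with earlier results known. Nothing is therefore read from their shared direction. The arrestin gene Txnip, a sugar-responsive ChREBP target, was lower in ΔIEC than in fl/fl organoids, by -0.63 (adjusted p = 0.000352) untreated and -0.89 (adjusted p = 5.10e-06) under IL-22.

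Of 5 polyol pathway genes beside Sord, Akr1b8, an aldo-keto reductase of the aldose reductase family, rose with IL-22 from 63.1 ± 4.97 to 147 ± 15.8 CPM in fl/fl (log2 fold change 1.22, SE 0.09, adjusted p = 1.73e-09 by edgeR) and from 95.8 ± 5.95 to 231 ± 22.4 CPM in ΔIEC organoids (1.27, SE 0.09, adjusted p = 4.07e-10). Akr1b7, another member of that family, fell in ΔIEC organoids (-1.27, adjusted p = 0.000833), and its value in fl/fl organoids was -0.73 (adjusted p = 0.0266). Akr1b3, the aldose reductase that makes sorbitol, differed by genotype, with 29.97 ± 2.57 CPM in untreated fl/fl and 43.9 ± 5.12 CPM in untreated ΔIEC organoids (0.52, SE 0.12, adjusted p = 0.00384), and was higher in ΔIEC organoids under IL-22 as well (0.70, SE 0.12, adjusted p = 0.000153). Akr1b8 was also higher in ΔIEC organoids, by 0.60 (adjusted p = 0.000183) and 0.65 (adjusted p = 1.23e-05). The 5 genes had median log2 fold changes of 0.04 and 0.03 with IL-22 and of 0.42 and 0.18 between genotypes, against -0.02 and 0.01 over all tested genes for the latter.

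Of 13 tested genes of gluconeogenesis and glucose release, 2 rose and 5 fell with IL-22 in fl/fl organoids and 2 rose and 4 fell in ΔIEC organoids. Slc37a2, a sugar phosphate antiporter, went from 18.0 ± 9.57 to 3.09 ± 1.81 CPM in fl/fl (log2 fold change -2.56, SE 0.39, adjusted p = 7.11e-05 by edgeR) and from 14.6 ± 2.49 to 1.30 ± 0.395 CPM in ΔIEC organoids (-3.40, SE 0.49, adjusted p = 3.73e-05). Fbp2, the second fructose bisphosphatase gene, went from 148 ± 15.1 to 73.8 ± 3.04 CPM (-1.0, adjusted p = 1.68e-09) and from 172 ± 5.14 to 94.5 ± 3.79 CPM (-0.87, adjusted p = 1.21e-08). Slc37a1, a related antiporter, rose by 0.97 (adjusted p = 6.26e-08) and 0.94 (adjusted p = 1.14e-07). Slc37a4, the transporter that brings glucose 6-phosphate to G6pc, fell in fl/fl organoids (-0.55, adjusted p = 0.00234), with a value of -0.05 in ΔIEC organoids. Got2, the mitochondrial aspartate aminotransferase gene, fell in both (-0.40, adjusted p = 8.33e-05, and -0.51, adjusted p = 5.95e-06). The list's median log2 fold changes were -0.17 and -0.08. Between genotypes, 0 of 13 were called without IL-22, and under IL-22 Got1 was lower (-0.65, adjusted p = 0.000336) and Fbp2 higher (0.36, adjusted p = 0.00143) in ΔIEC organoids.

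Of 13 tested enzymes of the glycolytic steps that oppose gluconeogenesis, 5 rose and 1 fell with IL-22 in fl/fl organoids, and 5 rose and 2 fell in ΔIEC organoids, with median log2 fold changes of 0.13 and 0.18. Hexokinase 2 (Hk2) rose from 219 ± 12.1 to 670 ± 78.2 CPM in fl/fl (log2 fold change 1.61, SE 0.11, adjusted p = 9.95e-10 by edgeR) and from 153 ± 17.7 to 545 ± 95.0 CPM in ΔIEC organoids (1.84, SE 0.12, adjusted p = 1.44e-10). Hk1 rose by 1.09 (adjusted p = 0.000340) and 1.03 (adjusted p = 0.000720), and Pfkfb3, which makes the activator of phosphofructokinase, by 1.00 (adjusted p = 6.13e-08) and 0.88 (adjusted p = 4.95e-07). Pklr, the pyruvate kinase gene of liver and intestine, fell by 0.70 (adjusted p = 6.20e-07) and 0.76 (adjusted p = 1.72e-07). Between genotypes, 7 of the 13 were lower in untreated ΔIEC organoids and 8 under IL-22, with 0 higher, and with median log2 differences of -0.41 and -0.43. Of all tested genes, 6.02% and 9.67% were called lower in these comparisons. The hexokinase domain gene Hkdc1 was at 296 ± 25.2 CPM in untreated fl/fl and 163 ± 11.8 CPM in untreated ΔIEC organoids (-0.87, SE 0.09, adjusted p = 1.00e-06) and differed by -0.81 under IL-22. Pfkm, the muscle type phosphofructokinase gene, differed by -0.53 (adjusted p = 0.00612) and -0.74 (adjusted p = 0.000332).

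**Figure D4:**
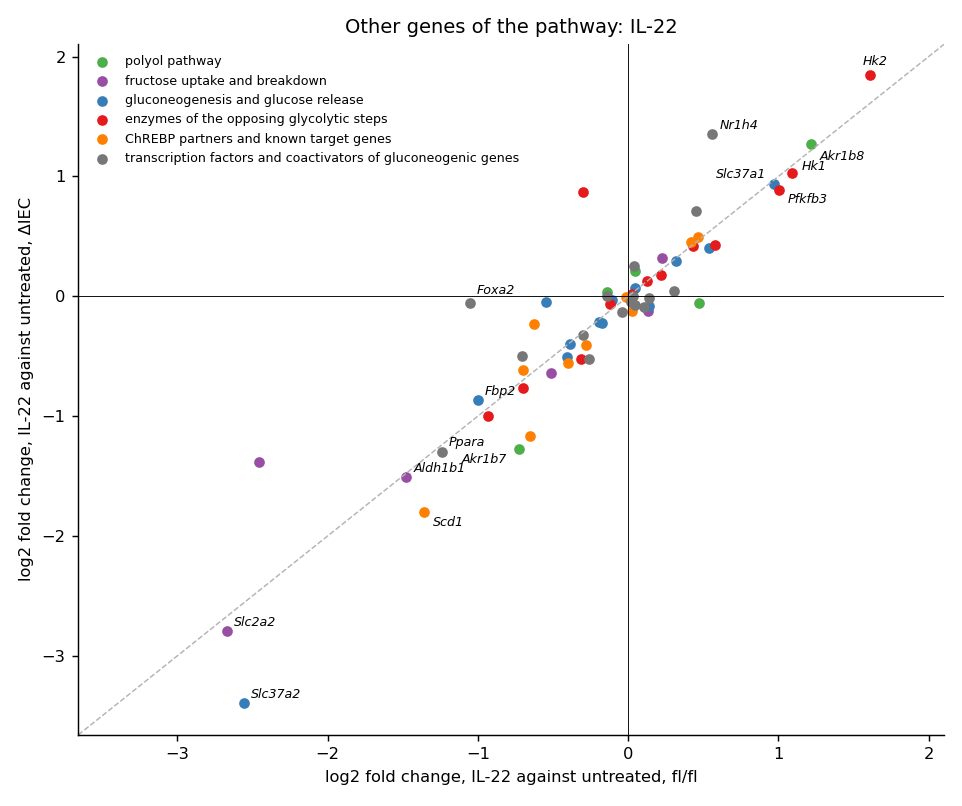
Log2 fold change with IL-22 in fl/fl (horizontal) against ΔIEC organoids (vertical) for 63 of the 64 tested genes of the 6 lists, coloured by list, with the dashed line marking equal values. Genes are labelled where a called change exceeds 0.9 in size in at least 1 genotype. Slc37a2 and Slc2a2 lie at the lower left and Hk2, Hk1 and Akr1b8 at the upper right.

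Of 13 tested ChREBP partners and target genes, 2 rose and 5 fell with IL-22 in each genotype. Scd1, the stearoyl-CoA desaturase gene, went from 827 ± 88.8 to 322 ± 43.4 CPM in fl/fl (log2 fold change -1.36, SE 0.11, adjusted p = 4.00e-09 by edgeR) and from 622 ± 49.7 to 179 ± 25.8 CPM in ΔIEC organoids (-1.80, SE 0.11, adjusted p = 6.52e-11). Acaca, which encodes acetyl-CoA carboxylase, fell by 0.70 (adjusted p = 8.53e-07) and 0.62 (adjusted p = 4.41e-06). The citrate lyase gene Acly fell in both (-0.40, adjusted p = 0.000333, and -0.56, adjusted p = 7.80e-06). The malic enzyme gene Me1 fell in fl/fl organoids (-0.63, adjusted p = 8.58e-05), with a value of -0.23 in ΔIEC organoids. The 2 genes that rose in both genotypes were Mlx, the partner of ChREBP (0.47, adjusted p = 0.000516, and 0.49, adjusted p = 0.000317), and the target gene Elovl6 (0.42, adjusted p = 0.000848, and 0.46, adjusted p = 0.000385). Between genotypes, 0 were higher and 4 lower in untreated ΔIEC organoids and 1 was higher and 5 lower under IL-22. Scd1 differed by -0.41 (adjusted p = 0.00862) and -0.85 (adjusted p = 8.73e-06), and Me1 was higher under IL-22 (0.69, adjusted p = 4.88e-05).

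Of 16 transcription factors and coactivators of gluconeogenic genes, 2 rose and 2 fell with IL-22 in each genotype. Ppara, a nuclear receptor of the fasting response, fell by 1.24 (adjusted p = 0.000142 by edgeR) in fl/fl and 1.30 (adjusted p = 6.57e-05) in ΔIEC organoids. Nr1h4, the bile acid receptor FXR, rose from 24.1 ± 2.77 to 35.8 ± 2.95 CPM in fl/fl (0.56, SE 0.12, adjusted p = 0.00138) and from 9.10 ± 1.38 to 23.6 ± 2.97 CPM in ΔIEC organoids (1.35, SE 0.15, adjusted p = 4.12e-07), and the difference of these effects was not called (0.79, adjusted p = 0.236). Foxa2 fell (-1.05, adjusted p = 0.00535) and Hnf4a rose (0.31, adjusted p = 0.000445) in fl/fl organoids, with values of -0.06 and 0.04 in ΔIEC organoids. Cebpb rose (0.71, adjusted p = 0.00293) and Cebpa fell (-0.53, adjusted p = 0.00319) in ΔIEC organoids, with values of 0.45 and -0.26 in fl/fl organoids. The coactivator gene Ppargc1a was at 49.7 ± 2.62 CPM in untreated fl/fl and 21.4 ± 5.70 CPM in untreated ΔIEC organoids (-1.18, SE 0.15, adjusted p = 1.74e-05), and differed by -1.29 (SE 0.15) under IL-22. Nr1h4 was lower in ΔIEC organoids by -1.38 (adjusted p = 2.43e-06) without and -0.59 (adjusted p = 0.00104) with IL-22.

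**Figure D5:**
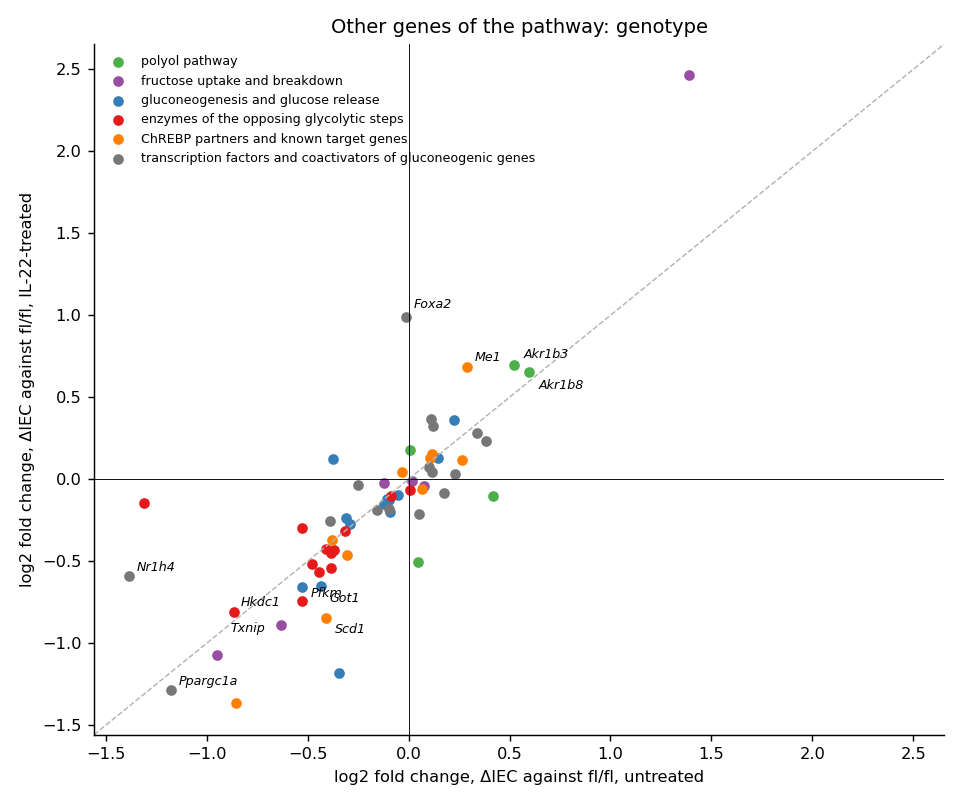
Log2 difference between ΔIEC and fl/fl organoids, untreated (horizontal) and IL-22–treated (vertical), for 63 of the 64 tested genes of the 6 lists, coloured by list, with the dashed line marking equal values. Genes are labelled where a called difference exceeds 0.6 in size in at least 1 comparison. Ppargc1a, Hkdc1, Txnip and Nr1h4 lie at the lower left and Akr1b3 and Akr1b8 at the upper right.

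The genes whose log2 CPM followed each member most closely over the 16 cultures were named by the highest Pearson r. These were Ces1d for Khk (r = 0.989), Ces2a for Tkfc (r = 0.979), Apoa4 and the fatty acid binding protein gene Fabp1 for Slc2a5 (r = 0.983 and 0.981), Cyp2d26 and Scd1 for Fbp1 (r = 0.991 and 0.986), Abcb1a and Tkfc for G6pc (r = 0.970 and 0.965), mt-Co1 for Mlxipl (r = 0.964) and Arhgef26 for Sord (r = 0.845). With the group means taken out, the closest genes were Man1a for Khk (r = 0.955), Lct for Tkfc (r = 0.953), Apoa4 for Slc2a5 (r = 0.952), Hnf4g for G6pc (r = 0.921), Cyp2d26 for Fbp1 (r = 0.921), Gm17491 for Mlxipl (r = 0.932) and Pdss1 for Sord (r = 0.950). Apoa4 and Cyp2d26 led both orders for their member. The 16 points share groups, lines and libraries, and these values describe likeness only.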

How the data were processed

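RNA from 16 organoid cultures was sequenced as paired-end reads of 150 nt. The authors used cutadapt for trimming, TopHat2 for alignment to GRCm38 (mm10) and HTSeq for counting. The deposited table holds the raw counts per gene. Versions, annotation release and the strand setting of the counting are not given in the sources used here. A TruSeq RNA v2 kit is named in the labels but a stranded total RNA kit in the methods, so reads from overlapping antisense genes may be included. Of the reads in the table, 36.3% to 38.3% were on genes, and lines that name no gene (38.0% to 40.1% no feature, 0.740% to 1.13% ambiguous, 21.5% to 24.2% not unique) were left out. Identifiers without version were matched to GENCODE symbols (49326 of 49585) and exon lengths were summed over merged exons.

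Groups and lines came from the labels. In R 4.3.3, edgeR 4.0.16 (filterByExpr over the 4 groups, TMM, robust quasi-likelihood fit of 4 group means) tested 12559 genes, two-sided, with Benjamini-Hochberg adjustment over all of them and a threshold of 0.01. SEs were derived from the F statistic (size of the log2 fold change over the root of F) and left out for G6pc where the fold change was near 0. A prior count of 2 was used for log2 CPM. Groups with at most 3 counts in each culture were treated as at the floor. Alternatives were DESeq2 1.42.0, limma-voom (limma 3.58.1) with the line as correlated block (consensus correlation 0.261), RLE scaling, 2 other filters, a threshold of 0.05, line as replicate block, cultures of a line summed, only the groups compared, and each culture or line left out. The steps were tested on simulated data drawn without differences between lines, which cannot show how calls behave when lines differ.

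The labels name the line of each culture. As a check of this pairing, each culture's deviation from its group mean was correlated between treatments across genes, which are not independent replicates. Correlations were 0.263 to 0.438 within a fl/fl line and -0.435 to -0.218 between them, and 0.0563 to 0.321 against -0.352 to -0.0779 in ΔIEC organoids. Lines are nested in genotype, so a block was possible for IL-22 effects and the interaction. No 2 cultures of a group agreed within sampling noise (chi-square per degree of freedom 1.35 or more).

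The members and the gene lists were chosen with earlier results of these data known. Of each list and comparison, the genes past the threshold with the 4 largest absolute log2 fold changes could be named with values, and the others are given as counts. Mlx and Elovl6 were named outside this rule, as the genes of their list that rose with IL-22. A few listed genes are not reported here on their own. The 3 genes of closest correlation were listed per member.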

Additional observations from a re-analysis of the deposited data

Results flagged for a closer look

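In 32 groups of 4 cultures (8 genes in 4 groups), 2 held a culture whose gap to the nearest other exceeded Dixon's 95% critical share of the group's range. Chance gives this in about 1 group in 20. Pck1 in IL-22–treated ΔIEC organoids, with 0 counts throughout, had no range and was not examined. Khk in untreated fl/fl replicate 3 was at 7.76 log2 CPM (215.8 CPM, 476 counts), with a gap of 0.949 of the range below the other 3 cultures. Pck1 in untreated ΔIEC replicate 1 was at 0.079 log2 CPM, which is 2 counts against 0 in the other 3. With 3 cultures tied at 0 any count in the remaining culture gives such a gap, so the rate by chance does not apply to it.

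The difference in IL-22 effect between genotypes was past the threshold for Sord (log2 difference 0.92) and Fbp1 (-1.90) in the fit with organoid line as a replicate block. Neither was past it in the reported fit, which has no block, or with the cultures of a line summed.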

How the results depend on the processing

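A total of 29 alternatives was run, 20 of which left out a culture or a line. Over the members' fold changes and alternatives, 871 values kept direction and side of the threshold, 43 lost and 38 gained a call, and 31 changed sign, none of which was called in the reported fit. Of the calls, the IL-22 differences of Tkfc and Fbp1 in both genotypes and the Fbp1 difference between genotypes under IL-22 were past the threshold in every alternative with a value for them. The depth of 2135000 to 5574860 counts limits Pck1, and Fbp1 and G6pc in treated organoids, where cultures held 1 to 77 counts. Genotype and line cannot be told apart, with 2 lines each. The cause of the changes below was not tested. Summing the cultures of a line leaves 2 values per group.

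Summing the cultures of a line gave fewer calls. Over all tested genes it called 561 with IL-22 in fl/fl and 657 in ΔIEC organoids, against 2616 and 2195 in the reported fit. Between genotypes it called 28 genes untreated and 226 under IL-22, against 1234 and 2483. It called 0 members for the interaction, and of the IL-22 calls of members those of Tkfc and Fbp1 remained. With IL-22 in fl/fl organoids it called 2 members lower, and 4 pathway genes higher and 5 lower. In ΔIEC organoids it called 0 members higher and 2 lower, and 5 pathway genes higher and 7 lower. Between untreated genotypes it called 0 members lower, and 0 pathway genes higher and 2 lower, and under IL-22 0 members higher and 1 lower, and 0 pathway genes higher and 3 lower. Requiring 10 counts in every culture removed Fbp1 and G6pc, leaving 2 members lower with IL-22 in fl/fl, 3 in ΔIEC organoids and 0 between untreated genotypes. Over all genes that filter called 2384 with IL-22 in fl/fl, 1931 in ΔIEC organoids and 1135 between untreated genotypes. In that last comparison DESeq2, limma-voom, a threshold of 0.05 and a fit of only the groups compared each called 3 members lower, and the last 1 higher. A threshold of 0.05 called 5 pathway genes higher and 21 lower there, and limma-voom 1 higher. Over all genes DESeq2 called 1405 there, limma-voom 777, the threshold of 0.05 2537 and the fit of only the groups compared 1236.

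For the interaction, DESeq2, limma-voom, no filter on low counts and organoid line as a replicate block each called 1 member higher (Sord, 0.92 with the block), and no filter and the block each called 1 lower (Fbp1, -1.90 with the block). Over all genes these settings called 11, 5, 36 and 53, against 2 in the reported fit, and DESeq2 adjusted over 2574 genes. With a culture or a line left out, 0 members were called. RLE scaling, the filter of 10 counts, the threshold of 0.05 and summed cultures called 0 members there. DESeq2 called 1 pathway gene lower. The block also called Slc2a5 lower with IL-22 (-1.44 in fl/fl and -1.25 in ΔIEC organoids) and changed no other call of a member. Over all genes it called 3869 with IL-22 in fl/fl and 3257 in ΔIEC organoids, against 2616 and 2195 in the reported fit. Fits of only the groups compared gave no interaction, and the block gave no comparison of genotypes. The interaction changed sign for Slc2a5 with limma-voom (-0.082) and for G6pc with DESeq2 (0.034), the block (0.17) and summed cultures (0.036).

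With a culture or a line left out, members called with IL-22 ranged from 3 to 5 lower in fl/fl and 4 to 5 lower in ΔIEC organoids, and pathway genes from 5 to 12 higher and 9 to 18 lower in fl/fl and 8 to 12 higher and 11 to 16 lower in ΔIEC organoids. Between untreated genotypes the ranges were 0 to 1 members higher and 0 to 2 lower, and 1 to 4 pathway genes higher and 6 to 15 lower. Under IL-22 they were 0 to 2 members higher and 2 to 3 lower, and 3 to 5 pathway genes higher and 12 to 17 lower. Calls over all genes in these fits ranged from 1127 to 2809 with IL-22 in fl/fl and 945 to 2496 in ΔIEC organoids. Between genotypes they ranged from 492 to 1742 untreated and 989 to 2652 under IL-22. Log2 fold changes that changed sign ranged from -0.32 to 0.069 for Sord with IL-22 in fl/fl organoids, from -0.15 to 0.26 (untreated) and -0.11 to 0.30 (IL-22) for Tkfc between genotypes, from -0.50 to 1.35 and -1.03 to 1.14 for G6pc between genotypes, and for the interaction from -0.0705 to 0.18 for Tkfc, -0.70 to 0.60 for Slc2a5 and -0.75 to 0.69 for G6pc.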
